A study of Mus musculus with 6 samples.

Results

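Complement is the set of plasma and cell-surface proteins that tag and lyse targets and call in phagocytes. In the classical pathway C1q binds antibody or dying cells and activates the proteases C1r and C1s, which cleave C4 and C2. The alternative pathway runs through C3 and factor B, and both routes meet at C3, whose fragments coat targets or signal through receptors such as C3ar1. Much of the plasma complement comes from the liver, while C1q is made largely by macrophages, and stromal cells and macrophages make several of the other components in tissues.

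The 9 genes described here were chosen by name, as rows of the deposited gene table whose Ensembl identifiers map to them in GENCODE M21 on GRCm38, out of 49328 genes listed. They are the C1q chains C1qa, C1qb and C1qc, the classical pathway genes C1s1 and C4b, the central component C3 with the alternative pathway protease Cfb, the regulator Serping1 and the receptor C3ar1. RNA sequencing covered 6 libraries of total RNA from cultured mesenchymal stromal cells (MSCs) of CB6F1 mice with acute graft-versus-host disease (aGVHD), an attack of donor immune cells on the host after transplantation. In 3 libraries the cells had received the vehicle, DMSO, in culture, and in 3 they had received a compound labelled R at a dose of 0.5 um, as the label writes the unit. All 6 libraries therefore come from diseased mice, and no library from healthy mice was analysed here. The cells were taken from digested whole marrow and grown in serum-containing medium, and the sources used here do not say what R is or how long it was applied.

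Levels are FPKM, fragment counts scaled to gene length and library total, so that levels of different genes can be compared. Changes are given on the log2(FPKM + 1) scale, R minus vehicle, with the moderated standard error (SE) and Benjamini-Hochberg adjusted p of limma over the 11862 genes that had at least 1 FPKM in at least 3 libraries. Depth, estimated from the steps of low values, ranged from 17070000 to 21760000 reads. The labels do not say whether replicates are separate animals or cultures, and the p-values measure only the spread between these libraries. The cultures held macrophage RNA in both groups: 19 of 20 macrophage markers passed the filter, and none was at 0 throughout. Their summed level was 14701 to 18843 FPKM in vehicle and 12606 to 15855 FPKM in R. Most of this sum was the lysozyme gene Lyz2, at 9919.8 to 12885 FPKM in vehicle and 8707 to 10798 FPKM in R. Of 19 stromal markers 14 passed, with sums of 825 to 1172 FPKM in vehicle and 1027 to 1464 FPKM in R. Of the 14 tested stromal markers 8 had a positive and 6 a negative change, beside 50.7% of all tested genes with a negative one. Ly6a fell, from 141 to 23 FPKM (log2 change -2.56; limma, adjusted p = 0.015), 0 rose and 13 did not pass. Of all tested genes 4.43% fell and 2.39% rose. The collagen gene Col1a1 had mean levels of 214 and 479 FPKM in vehicle and R and Pdgfrb 33.9 and 54.4 FPKM, neither of which passed the test. Cxcl12 had 81.9 and 31.6 FPKM and did not pass either. The 5 stromal markers below the filter were Lepr (0.115 and 0.112 FPKM), Nt5e (0.384 and 0.449 FPKM), Thy1 (1.04 and 0.215 FPKM), Dcn (0.316 and 0.152 FPKM) and Lum (0.0145 and 0 FPKM), each as the means in vehicle and R. The 12 T and NK cell markers summed to 8.34 to 15 FPKM in vehicle and 3.05 to 8.02 FPKM in R, and 3 passed the filter. Of these Nkg7 fell, from 2.22 to 0.142 FPKM (log2 change -1.47; limma, adjusted p = 0.0079). Trbc2 (2.64 and 0.887 FPKM in vehicle and R) and Cd4 (1.06 and 2.42 FPKM) went in opposite directions and did not pass.

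The promoters of C3, which had the largest change among the tested members, and of C1qb and C1qc, which were among the most abundant, are shown so that their letters can be compared. RefSeq promoter windows on GRCm38.p6, from 250 bases before to 50 after the transcription start, were found for 5 of the 9 genes, C1qb, C1qc, C1s1, C3 and C3ar1. C1qa, C4b, Cfb and Serping1 had no entry. The windows were searched on both strands for TTCNNNGAA (the STAT-binding GAS element), GAAANNGAA (the core of the interferon response element ISRE), GAGGAA (the core of the myeloid PU.1 site) and the NF-kappaB motif. Printed below are the 150 bases before each RefSeq start, 5′ to 3′ on the minus strand, with matches in capitals. They lie at chr17:57228137-57228286 for C3, chr4:136886201-136886350 for C1qb and chr4:136892915-136893064 for C1qc. The C1qc stretch lies inside the gene as GENCODE M21 places it (136889804 to 136893065), so RefSeq and GENCODE differ in its start.
C3: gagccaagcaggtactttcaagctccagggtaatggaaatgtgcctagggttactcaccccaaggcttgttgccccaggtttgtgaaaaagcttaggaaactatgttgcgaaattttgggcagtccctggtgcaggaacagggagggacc
C1qb: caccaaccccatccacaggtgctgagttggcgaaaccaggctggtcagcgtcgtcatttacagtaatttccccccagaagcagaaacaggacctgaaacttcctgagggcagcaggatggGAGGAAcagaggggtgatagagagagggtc
C1qc: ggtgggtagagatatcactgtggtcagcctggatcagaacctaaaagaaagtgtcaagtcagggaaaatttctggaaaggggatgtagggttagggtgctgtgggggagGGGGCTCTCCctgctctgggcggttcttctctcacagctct

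None of the windows of the 5 genes held the GAS or the ISRE core letters, which 8.3% and 8.56% of all 32851 windows held. C1s1 has more than 1 RefSeq start, and the window of each was searched. C1qb had 1 PU.1 core, from base -30 to -25. C1qc had 1 PU.1 core, from base -193 to -188, outside the printed stretch, and 1 NF-kappaB match, from base -41 to -32. The C3, C3ar1 and C1s1 windows held none of the motifs. The PU.1 core was in 28.3% and the NF-kappaB motif in 8.46% of all windows. A match describes letters only, and sequence beyond these windows was not searched.

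**Figure D1:**
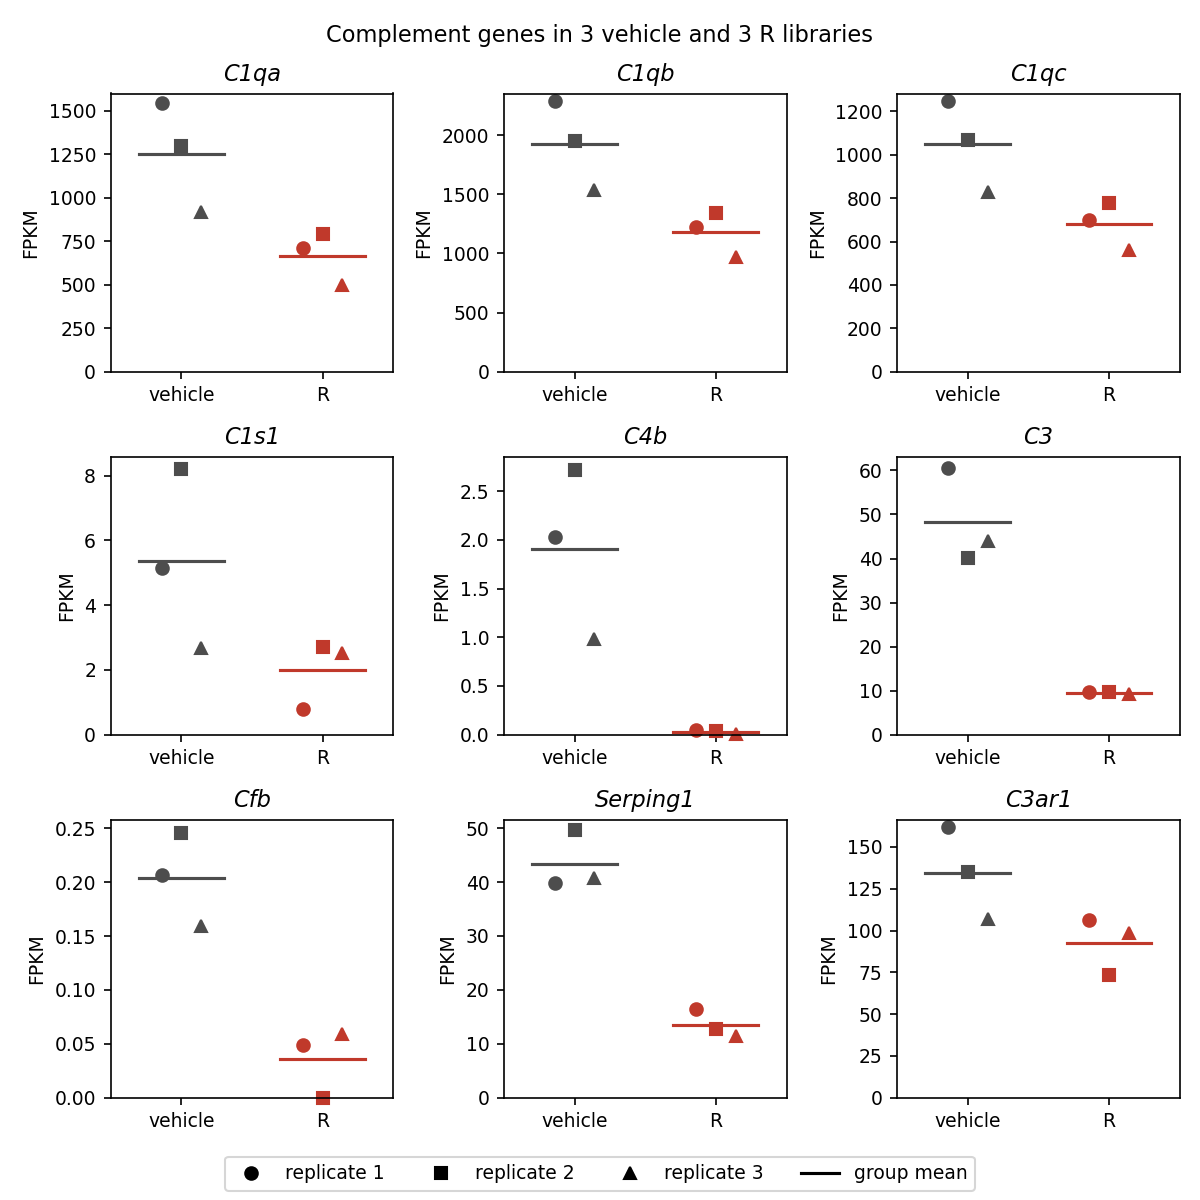
FPKM (vertical axes, each starting at 0) of the 9 genes in the 3 vehicle libraries (grey) and 3 R libraries (red), with 1 point per library and a line at the group mean. In every panel but that of C1s1 all R points lie below all vehicle points, and C3 is tightly grouped in R between 9.29 and 9.72 FPKM.

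Each of the 9 genes had a lower mean in R, by unlike amounts, and C3 and Serping1 passed the test. Of the 9 genes 7 passed the filter, C4b and Cfb being too low. Of the 7 tested, 2 fell and 0 rose, beside 4.43% of all tested genes that fell and 2.39% that rose. The members were chosen with earlier results of these data known, so the shares given here are background only. Each of the 7 had a negative change, as did 50.7% of all tested genes. Each also had an unadjusted p under 0.05 in limma, a level that 24.0% of all tested genes reached in either direction. In 6 of the 7 every R value lay below every vehicle value, as it did in 15.5% of all tested genes, while the reverse held for 0 of the 7 and for 13.9% of all tested genes. The median change was -0.90 over the 7 and -0.0037 over all tested genes. In bulk RNA a lower level can stand for fewer cells of a type or for less RNA per cell, which cannot be told apart here.

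The C1q chains assemble into the hexameric recognition molecule of the classical pathway, and they were by far the most abundant members. They lie side by side on the minus strand of chromosome 4, C1qb at 136880129 to 136886187, C1qc at 136889804 to 136893065 and C1qa at 136895917 to 136898803 (GRCm38). C1qb had 2285, 1946 and 1533 FPKM in vehicle replicates 1, 2 and 3, and 1225, 1337 and 969.9 FPKM in R replicates 1, 2 and 3. All R values were below the lowest vehicle value. C1qb ranked 9 to 17 among the tested genes in the vehicle libraries and 19 to 22 in the R libraries. C1qa had 1548, 1298 and 917 FPKM in vehicle and 714, 792 and 499 FPKM in R. C1qc had 1248, 1068 and 827 FPKM in vehicle and 701, 778 and 563 FPKM in R. Vehicle replicate 3 was the lowest vehicle library for each chain, and R replicate 2 was the highest and R replicate 3 the lowest R library for each.

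The C1q chains did not pass the test over all genes. C1qa went from 1254 ± 318 to 668 ± 152 FPKM (SD, n = 3; log2 change -0.90, SE 0.244; limma, adjusted p = 0.075). C1qb went from 1921 ± 377 to 1177 ± 188 FPKM (log2 change -0.70, SE 0.194; limma, adjusted p = 0.079). For C1qc the levels were 1047 ± 211 and 681 ± 109 FPKM (log2 change -0.61, SE 0.191; limma, adjusted p = 0.11). The 95% intervals of the 3 changes lay below 0, at -1.48 to -0.33, -1.16 to -0.24 and -1.06 to -0.16. Such intervals of changes, here and below, are for single genes and are not adjusted for the number of genes tested. C1qa passed without vehicle replicate 3 (limma, adjusted p = 0.039), and C1qa and C1qc passed with quantile normalization (limma, adjusted p = 0.015 and 0.049). Of 15 alternative fits, however, C1qa did not pass in 12, C1qb in 14 and C1qc in 14 (limma, adjusted p up to 0.24, 0.35 and 0.32).

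The make-up of the summed C1q level differed slightly between the groups. C1qa made up 30.5%, 30.1% and 28.0% of the summed C1q FPKM in the vehicle libraries and 27.0%, 27.2% and 24.5% in the R libraries. C1qc made up 24.6%, 24.8% and 25.2% in vehicle and 26.6%, 26.8% and 27.7% in R. The groups did not overlap for either chain, and no test was made of these shares. The share of C1qb, 45.0% to 46.8% in vehicle and 46.0% to 47.7% in R, did overlap.

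Macrophage markers are given beside the C1q chains. Of the 19 tested markers 5 fell (Fcgr1, Msr1, Aif1, Fcgr3 and Itgam), 0 rose and 14 did not pass, beside 4.43% of all tested genes that fell and 2.39% that rose. Of the 19, 16 had a negative change, as did 50.7% of all tested genes, and the median was -0.36. Cd68, a lysosomal protein of macrophages, had mean levels of 666 and 723 FPKM in vehicle and R, and the F4/80 gene Adgre1 had 349 and 237 FPKM, neither of which passed. The mean log2 level of the markers was 7.71, 7.55 and 7.31 in vehicle and 7.19, 6.96 and 6.90 in R, so that the groups did not overlap. The mean of the C1q chains exceeded it by 2.97, 2.89 and 2.73 on the log2 scale in vehicle and by 2.54, 2.91 and 2.44 in R. These differences overlapped between the groups, and their means differed by -0.23, against -0.74 for the C1q chains alone. The marker mean itself changed by -0.51, further than the marker median, as single markers ranged from -2.47 (Fcgr1) to 0.88 (Cx3cr1). How far the difference depends on the choice of markers was not tested. The part of macrophage content in the C1q result was not tested beyond these values.

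**Figure D2:**
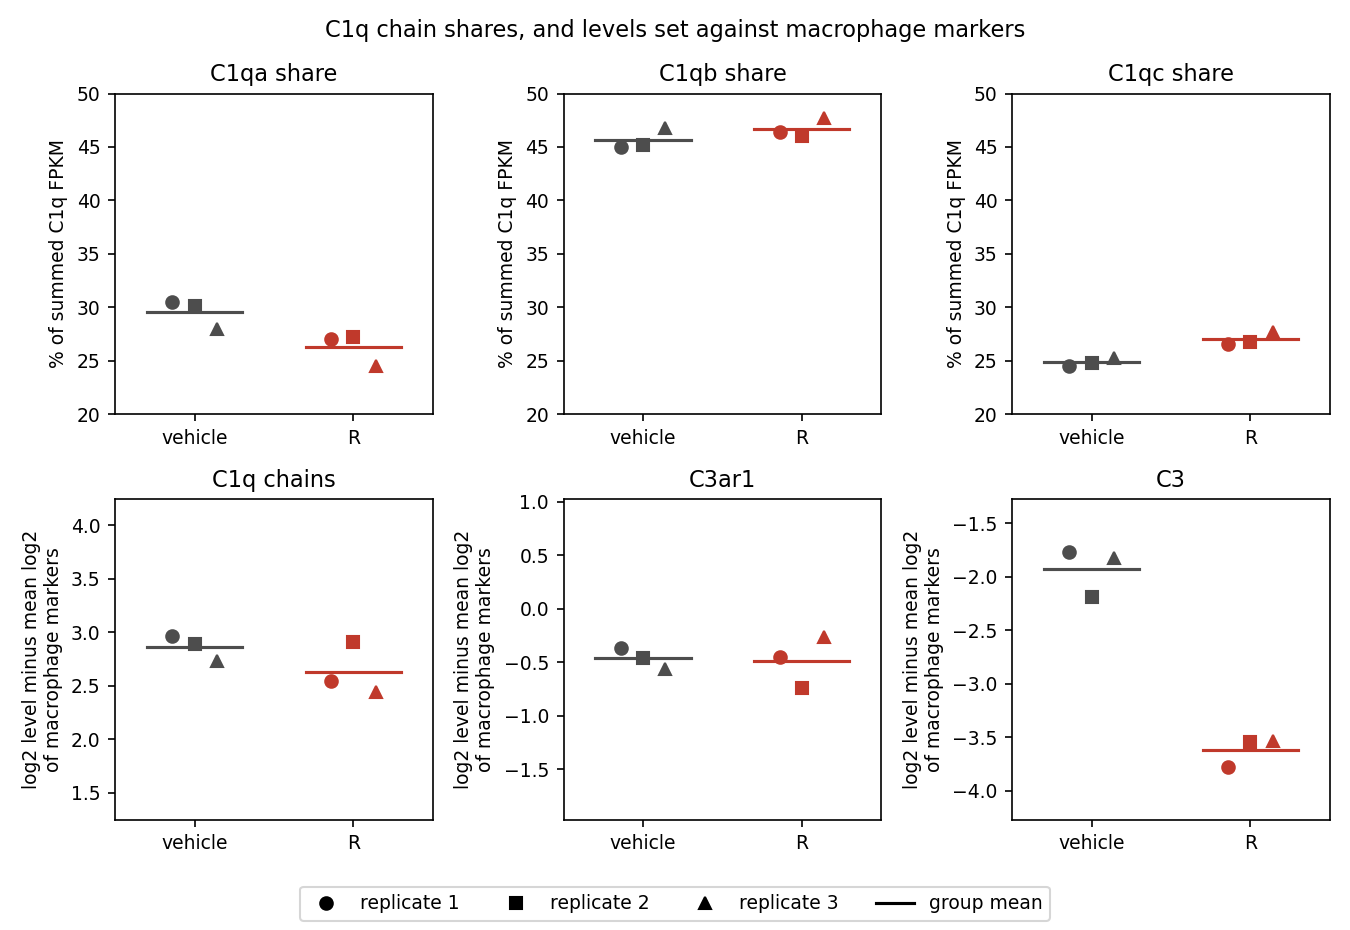
Top row: the share of each C1q chain in the summed C1q FPKM (percent; the axis runs from 20 to 50). Bottom row: log2 level of the C1q chains (mean of 3), C3ar1 and C3 minus the mean log2 level of the 19 tested macrophage markers. Points are libraries (grey vehicle, red R) and lines are group means. C1q and C3ar1 overlap between groups on this scale, while C3 is lower in R by 1.69.

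C1s1 and C4b act after C1q. C1s1 (chromosome 6, 124530345 to 124542359) encodes the protease C1s that cleaves C4 and C2. It had 5.15, 8.22 and 2.68 FPKM in vehicle and 0.794, 2.7 and 2.51 FPKM in R. R replicate 1 was far below the other R libraries, and R replicate 2 just exceeded vehicle replicate 3, so the groups overlapped. The means were 5.35 ± 2.77 and 2 ± 1.05 FPKM (SD, n = 3; log2 change -1.05, SE 0.39; limma, adjusted p = 0.16), with a 95% interval of -1.97 to -0.14. Its partner C1ra, the protease that activates C1s and a neighbour on chromosome 6, showed the same order of libraries in vehicle and in R. C1ra had 11.1, 13 and 6.42 FPKM in vehicle and 2.54, 5.86 and 4.77 FPKM in R, which did not overlap (log2 change -1.05, SE 0.306; limma, adjusted p = 0.089). It passed without vehicle replicate 3 (limma, adjusted p = 0.041) but not in the other 14 alternative fits (limma, adjusted p up to 0.26). C1s1 and C1ra have close copies, C1s2 and C1rb, whose reads the counting may have shared. C1s2 had mean levels of 0.198 and 0.143 FPKM and C1rb of 0.298 and 0.176 FPKM in vehicle and R.

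C4b encodes C4, the substrate of C1s, and showed the widest ratio between the groups. It lies in the class III region of the MHC (chromosome 17, 34728380 to 34743882). Its level was 2.03, 2.72 and 0.983 FPKM in vehicle and 0.0484, 0.0391 and 0.00972 FPKM in R. These stand for an estimated 197, 290 and 112 reads in vehicle and 6, 4 and 1 reads in R. All R values lay below all vehicle values, and the summed reads per depth were 56.4 times higher in vehicle, with an exact 95% interval of 31.3 to 114 that covers counting error only. C4b missed the filter because vehicle replicate 3 was under 1 FPKM, and its change of -1.45 on the log2(FPKM + 1) scale was tested by an exact permutation of the 6 libraries (two-sided p = 0.1, the smallest that 3 against 3 allows). Without a filter limma gave an adjusted p of 0.054. The change depended on the pseudocount, being -3.83 with 0.1 and -0.45 with 5. C4a, a close copy, had 0.159 and 0.113 FPKM, so reads that both genes share may have been lost or misplaced.

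C3, the protein on which the pathways converge, had the largest change of the tested members. C3 (chromosome 17, 57203970 to 57228136) had 60.6, 40.1 and 43.9 FPKM in vehicle and 9.66, 9.72 and 9.29 FPKM in R. The R libraries were nearly alike and the vehicle libraries were spread, with no overlap. The mean fell from 48.2 ± 10.9 to 9.56 ± 0.236 FPKM (SD, n = 3), which left 19.8% of the vehicle level (log2 change -2.20, SE 0.15; limma, adjusted p = 0.00049). C3 ranked 849 to 1368 among the tested genes in the vehicle libraries and 4975 to 5210 in the R libraries. Set against the mean log2 level of the macrophage markers, C3 was lower in R by 1.69, without overlap. C3 stayed below the threshold in all 15 alternative fits (limma, adjusted p = 0.00035 to 0.0058).

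Cfb encodes factor B, the protease of the alternative pathway C3 convertase, and was close to the detection limit. Its level (chromosome 17, 34856374 to 34862518) was 0.207, 0.246 and 0.159 FPKM in vehicle, an estimated 10, 13 and 9 reads. In R it was 0.0488, 0 and 0.0588 FPKM, or 3, 0 and 3 reads. The groups did not overlap, and the summed reads per depth were 5.52 times higher in vehicle (exact 95% interval 2.28 to 16.2, for counting error only). The exact permutation p was 0.1, two-sided, the smallest possible. The predicted gene Gm20547 overlaps Cfb and its neighbour C2 on the same strand, and how reads in the shared stretch were counted is not known here, so the level is uncertain.

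Properdin, the stabilizer of the alternative pathway convertase, was abundant. Its gene Cfp had 438, 339 and 297 FPKM in vehicle and 184, 261 and 179.7 FPKM in R, without overlap. Its change of -0.78 (SE 0.195) did not pass (limma, adjusted p = 0.06). It passed without R replicate 2 (limma, adjusted p = 0.046) and with quantile normalization (limma, adjusted p = 0.036). In the other 13 alternative fits it did not pass (limma, adjusted p up to 0.18).

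Serping1 encodes C1 inhibitor, the serpin that blocks C1r and C1s, and it fell in R. Serping1 (chromosome 2, 84765387 to 84775444) had 39.9, 49.7 and 40.7 FPKM in vehicle and 16.4, 12.7 and 11.4 FPKM in R. All R libraries lay far below the lowest vehicle library. The mean fell from 43.4 ± 5.44 to 13.5 ± 2.62 FPKM (SD, n = 3), to 31.1% of vehicle (log2 change -1.62, SE 0.149; limma, adjusted p = 0.0014). It passed in all 15 alternative fits (limma, adjusted p = 0.00098 to 0.012). The ratio of Serping1 to its target protease C1s1 was 7.74, 6.04 and 15.2 in vehicle and 20.7, 4.68 and 4.54 in R. These ratios overlapped, with R replicate 1 the highest because of its low C1s1.

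**Figure D3:**
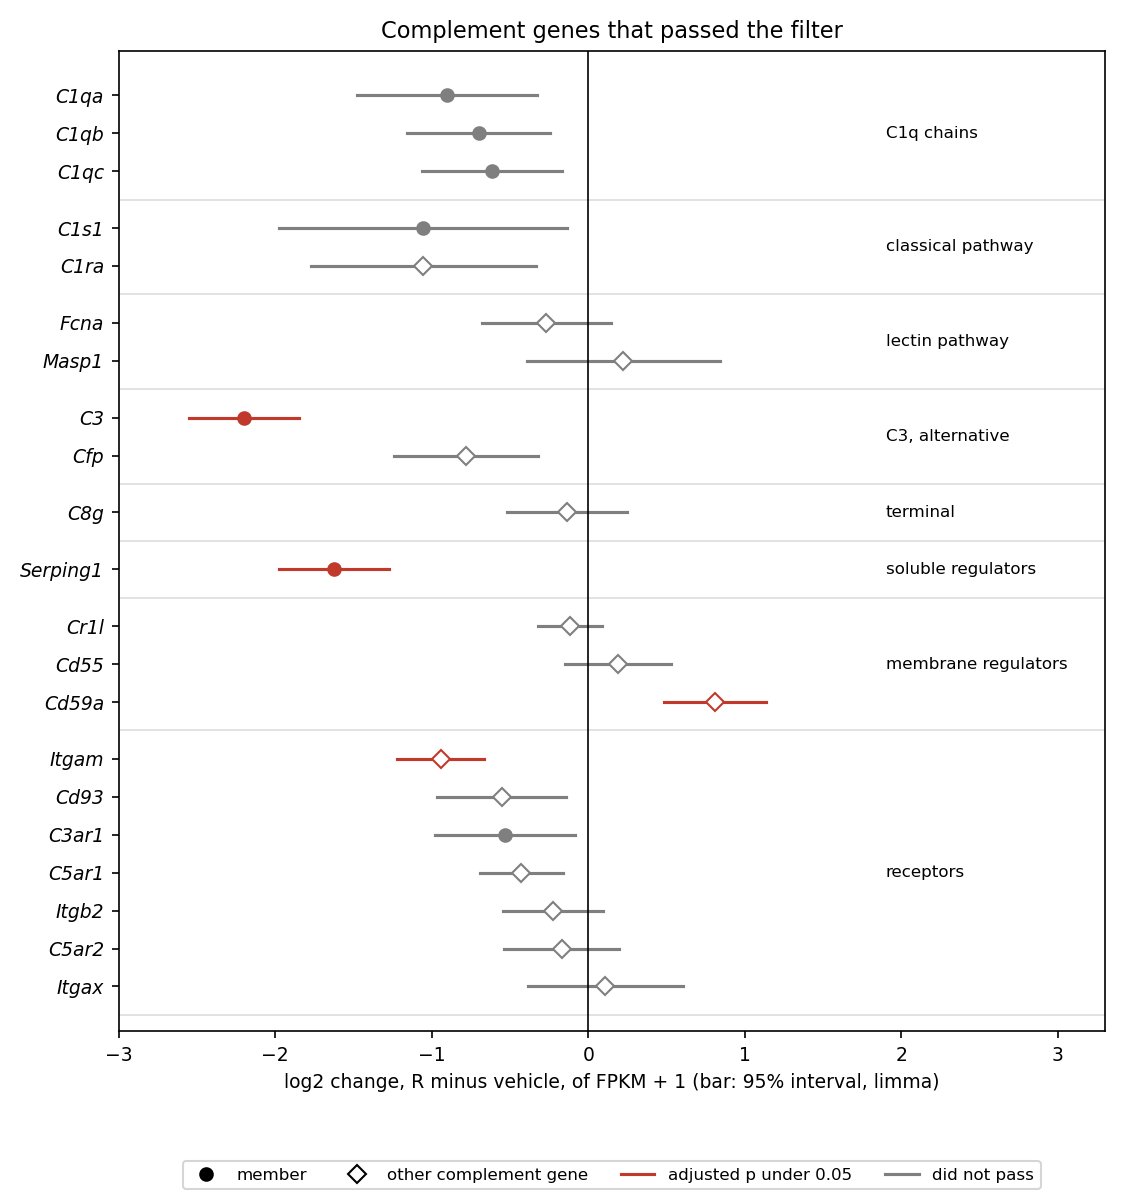
Log2 change of FPKM + 1, R minus vehicle (horizontal axis), of the complement genes described here that passed the filter, grouped by role. Filled circles are the named set, open diamonds other complement genes, bars unadjusted 95% intervals from limma, and red marks an adjusted p under 0.05. C3 and Serping1 lie furthest to the left, and Cd59a is the 1 gene past the threshold on the right.

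C3ar1, the receptor of the C3a fragment on myeloid cells, was high in both groups. C3ar1 (chromosome 6, 122847138 to 122856161) had 162, 135 and 107 FPKM in vehicle and 106, 73.6 and 98.8 FPKM in R. The groups only just failed to overlap, vehicle replicate 3 and R replicate 1 being nearly equal. The means were 135 ± 27.7 and 92.6 ± 16.9 FPKM (SD, n = 3; log2 change -0.53, SE 0.19; limma, adjusted p = 0.14), with a 95% interval of -0.98 to -0.08. Against the macrophage marker mean C3ar1 differed between the groups by -0.02. The level of C3ar1 was 2.68, 3.37 and 2.43 times that of C3 in vehicle and 10.9, 7.57 and 10.6 times in R.

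The order of the levels was C1qb, C1qa, C1qc, C3ar1, C3, Serping1, C1s1, C4b and Cfb in vehicle. In vehicle, C1qb and C1qa overlapped over libraries, as did C1qa and C1qc, C3 and Serping1, and C1s1 and C4b. The other neighbours did not. Within each vehicle library, however, C1qb exceeded C1qa, C1qa exceeded C1qc and C1s1 exceeded C4b. Only C3 and Serping1 changed places, with Serping1 the higher in vehicle replicate 2. In R the means of C1qc, Serping1 and Cfb stood above those of C1qa, C3 and C4b. The R values of C1qc and C1qa overlapped, as did those of Cfb and C4b. Within libraries C1qc exceeded C1qa only in R replicate 3, and Cfb exceeded C4b in R replicates 1 and 3. Serping1 exceeded C3 in every R library.

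Among 44 further complement genes, which complete the pathway, 41 were in the table and 15 passed the filter. Of these 2 fell, 1 rose and 12 did not pass, beside the 4.43% and 2.39% of all tested genes, and their median change was -0.23. Itgam, the alpha chain of complement receptor 3, fell from 23.1 ± 3.74 to 11.4 ± 0.443 FPKM (log2 change -0.94; limma, adjusted p = 0.0058) in every fit tried. Gm49368 overlaps Itgam on the same strand over 55809 bases, at mean levels of 0.0182 and 0.00319 FPKM in vehicle and R. How reads in the shared stretch were counted is not known here. Itgam is also one of the macrophage markers. Its partner chain Itgb2 had 168 ± 10.6 and 145 ± 25.5 FPKM (log2 change -0.23; limma, adjusted p = 0.36). Itgax, the alpha chain of complement receptor 4, had 6.27 ± 0.924 and 7.03 ± 2.41 FPKM (log2 change 0.11), and its sign turned without R replicate 1 (-0.12).

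Cd59a, the membrane inhibitor of the terminal pore, was the 1 complement gene that rose. Its level was 6.18, 7.13 and 6.79 FPKM in vehicle and 13.6, 14.3 and 9.99 FPKM in R, with no overlap. The mean went from 6.7 ± 0.482 to 12.6 ± 2.32 FPKM (log2 change 0.81, SE 0.139; limma, adjusted p = 0.019). The call ended without R replicate 1 or 2, vehicle replicate 1 or 2, or the filter (limma, adjusted p = 0.055 to 0.076). The other membrane regulators did not pass. Cd55, which speeds the decay of convertases, had a change of 0.19 (95% interval -0.15 to 0.53) and the rodent regulator Cr1l, also called Crry, one of -0.12 (95% interval -0.32 to 0.09).

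The remaining tested receptors did not pass. C5ar1, the receptor of C5a, had 183 ± 25.5 FPKM in vehicle and 135 ± 1.01 FPKM in R without overlap (log2 change -0.43, SE 0.113; limma, adjusted p = 0.071). C5ar2 had a change of -0.17 and Cd93, a surface lectin of myeloid and endothelial cells, one of -0.55 (limma, adjusted p = 0.57 and 0.11). In the lectin pathway the ficolin gene Fcna had a change of -0.27 and the protease gene Masp1 one of 0.22 (limma, adjusted p = 0.41 and 0.66). Masp1 shares 525 bases with Rtp4 on the opposite strand, whose mean was 28.6 FPKM in vehicle and 0.26 FPKM in R, and whether the counting used strand is not given in the sources used here. Of the terminal components only C8g passed the filter, at 1.61 ± 0.471 and 1.36 ± 0.21 FPKM (log2 change -0.13), and C8g overlaps Fbxw5 on the opposite strand. The other 26 genes in the table did not pass the filter, with at most 1.64 FPKM in any library, and 7 of them were listed at 0 in all 6.

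**Figure D4:**
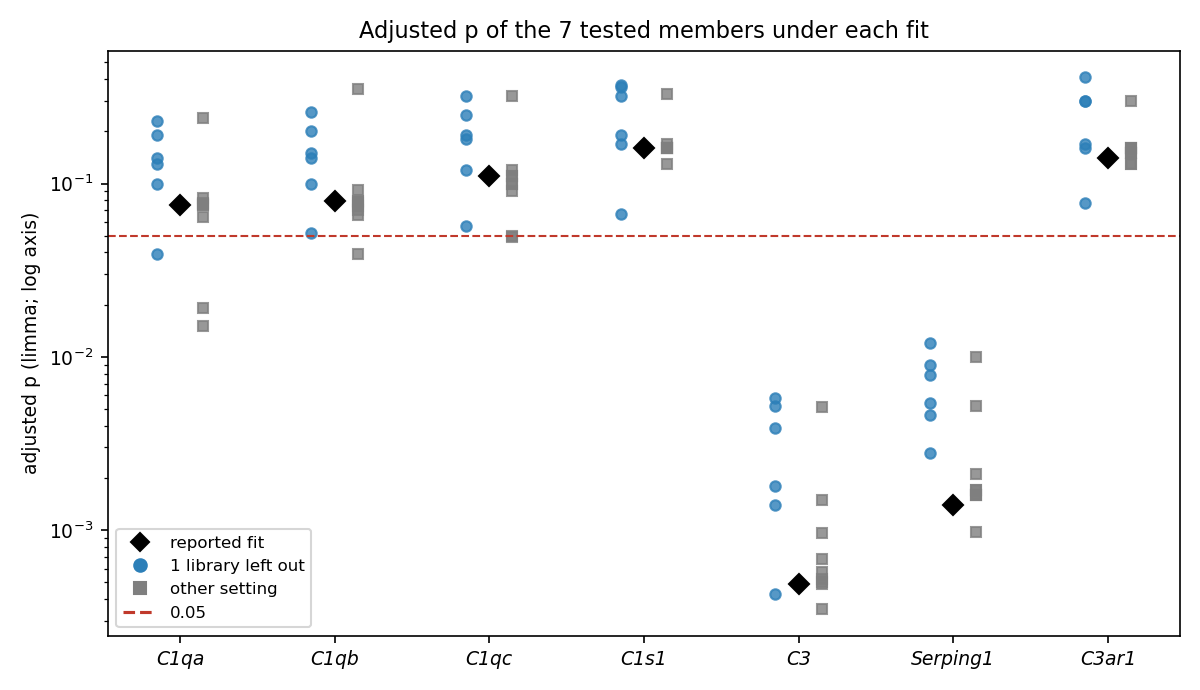
Adjusted p of limma (log axis) for the 7 tested members in the reported fit (black diamonds), with 1 library left out (blue circles) and under other settings (grey squares). The dashed line is 0.05. C3 and Serping1 lie below it in every fit and C1s1 and C3ar1 above it in every fit that held them, while the C1q chains cross it in some.

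The genes whose levels ran most like the members were found by Pearson's r of log2(FPKM + 1) over the 6 libraries, among 10668 tested protein-coding genes outside the complement lists. For the mean of the C1q chains they were AB124611 (r = 0.999), Ifnar2 (r = 0.998) and Tmbim6 (r = 0.995). For C3 they were Gda (r = 0.999), Phf11b (r = 0.998) and Plod1 (r = 0.998), and for C4b Gm6377 (r = 0.995), Trim12a (r = 0.991) and Zfp429 (r = 0.989). With 6 libraries in 2 groups such values describe the group difference as much as the order within groups. The genes were picked by r over these same libraries, so a like pattern follows from the choice and is a description only. Ifnar2, a chain of the type I interferon receptor, had 30.5, 28.2 and 25.8 FPKM in vehicle and 23.7, 24.6 and 21.7 FPKM in R, which is the order of the libraries in the C1q chains on a smaller scale. Phf11b had 18.1, 11.7 and 11.6 FPKM in vehicle and 1.44, 1.27 and 1.5 FPKM in R, so like C3 it was highest in vehicle replicate 1 and nearly level in R.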

How the data were processed

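Total RNA was sequenced in 6 MSC libraries, 3 R and 3 vehicle. The authors deposited 1 table of FPKM per gene and library. The submitters' processing notes name GRCm38 (mm10) as build and edgeR 3.18.1 as a tool. Their aligner, counter and annotation were not given in the sources used here. An incomplete last line of the table was dropped. Groups and replicate numbers came from the sample titles. Symbols, coordinates and exon lengths came from GENCODE M21. FPKM times exon length gave whole multiples of 1 read for 98.3% to 98.4% of low values (tolerance 0.02 reads), and this gave the estimated depth. It depends on that annotation, and the read numbers cover counting error only.

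The test was limma 3.58.1 (R 4.3.3) on log2(FPKM + 1), with a trend in the prior variance, after a filter of 1 FPKM in 3 libraries, and p-values were adjusted over all tested genes at a threshold of 0.05. The fit was tested on simulated data whose spread between libraries was a fixed setting, not taken from these libraries. It therefore does not show how the test behaves at the spread seen here. Alternatives were other pseudocounts (0.1 and 5), no filter, a mean of at least 5 FPKM, quantile normalization, equal medians, no trend, the replicate number as a block and leaving out each library. A filter of 2 libraries and the PU.1 motif were added after seeing the data. Named genes were the 9 members, every tested gene of the other complement lists and the 3 genes most like the C1q chains, C3 and C4b. Members and lists were chosen with earlier results of these data known. The result of 1 of the other complement genes is not reported here, though it stays in the counts. Promoter sequences are from RefSeq.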

Additional observations from a re-analysis of the deposited data

How the results depend on the processing

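Direction was kept in 344 of 345 alternative values of 24 complement genes, the exception being Itgax without R replicate 1 (range with 1 library left out -0.12 to 0.28). C3, Serping1 and Itgam passed in each of the 15 alternative fits. Of the 9 members, 4 were lower with quantile normalization and 4 with the replicate block (C1qa, limma adjusted p = 0.019, and C1qb, 0.039, joined). Leaving out 1 library gave 2 to 3. A filter of 2 libraries changed no call among the 7 tested members, and as C4b passes it only through its vehicle values, its test there was not used. The other complement genes had 1 fall with the replicate block, 1 fall and 0 rises without a filter, and 1 to 2 falls and 0 to 1 rises with 1 library left out. All tested genes gave 809 calls, 756 with the replicate block, 344 without a filter and 337 to 879 with 1 library left out. The unfiltered fit tests more genes; for the other differences the cause was not tested. The replicate numbers were not shown to pair the libraries: deviations from the group means correlated at 0.14, -0.01 and -0.03 for numbers 1, 2 and 3. Depth limits Cfb, with 0 to 3 reads per R library, and C4b, with 1 to 6.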

Other observations

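C2 and Cd59b were too low for the test and were picked after their values were seen. C2, which pairs with C4 in the classical convertase, had 0.862, 0.717 and 1.64 FPKM in vehicle and 0.712, 0.244 and 0.186 FPKM in R, with R replicate 1 just below the lowest vehicle library. C2 overlaps Gm20547 on the same strand and Zbtb12 on the opposite strand. Cd59b, the close copy of Cd59a, had 0.496, 0.328 and 0.423 FPKM in vehicle and 0.531, 0.513 and 0.851 FPKM in R. These stand for an estimated 11, 8 and 11 reads in vehicle and 15, 12 and 20 reads in R. Each R value lay above each vehicle value, but by as little as 0.513 against 0.496 FPKM. Of all tested genes 13.9% had every R value above and 15.5% every R value below every vehicle value. Reads that Cd59a and Cd59b share may have been misplaced.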
